A study of Mus musculus with 3 samples.

Results

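A set of 8 genes is described here, Esm1, Lalba, Chil6, Cpne7, Pstpip2, Prg4, En2 and Pros1, out of 13161 genes measured on at least 1 array of the series. The members were chosen by the size of their difference in signal between Rbpj-/- and WT CD4+ T cells, so those differences are given as a description with no test. Each member was found through the RefSeq accession of its probes: 8 of 8 were found, on 10 probes printed at 19 spots, and 8 of 8 have a probe well above background, the scanner software's flag for a spot clearly brighter than its surroundings.

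The series holds 3 one-colour microarrays of helper T cells 2 days after stimulation, with 1 array each for WT, Dll1-/- and Rbpj-/- cells. All 3 samples are labelled as C57BL/6, from females 8 weeks old, so the groups share everything the labels give except genotype. Dll1 encodes a Notch ligand carried on the cell surface. The sources used here give neither the promoter or Cre line behind each deletion nor the stimulus or the number of animals per array. A group holds 1 array, so the differences lack any replicate check and were not tested. Errors printed beside single spots come from the scanner software and cover the spot alone, and spots of 1 array are not replicates of a genotype.

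Rbpj is the DNA-binding protein at the end of the Notch pathway. Cleaved Notch binds it in the nucleus and turns its target genes on, while in the absence of Notch it can recruit corepressors and hold genes off. In helper T cells the pathway is known for its part in effector differentiation. The members have no common pathway. Esm1, Prg4, Chil6, Lalba and Pros1 encode secreted proteins, Pstpip2 and Cpne7 encode proteins that bind membranes from inside the cell, and En2 encodes a transcription factor.

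Promoter sequences were at hand for 4 members (Esm1, Lalba, Chil6 and Pros1) from RefSeq's annotation of GRCm38.p6, each running from 250 bases before the start of the gene to 50 bases after it. They are shown because the deleted protein binds DNA, and they were searched on both strands for the core of its binding site, TGGGAA, and for the longer form GTGGGAA, which contains that core. Lalba held 1 match to GTGGGAA, which begins 214 bases before its start and is in capitals, and Esm1, Chil6 and Pros1 held 0 matches to either. Of 32851 promoter windows of this length, 25.6% held TGGGAA and 6.38% held GTGGGAA. TTCNNNGAA, the site of the STAT factors that act behind cytokine receptors, was searched too. It matched at 2 places in Chil6 and 1 in Pros1, with 0 matches in Esm1 and Lalba, and 8.30% of all windows held it. Lalba, Esm1 (the largest difference of the set) and Pros1 (the lower member with a sequence) are printed 5′ to 3′ along the strand of the gene. The Lalba window lies at chr15:98482634-98482933 on the minus strand, the Esm1 window at chr13:113209409-113209708 on the plus strand and the Pros1 window at chr16:62854057-62854356 on the plus strand.
Lalba: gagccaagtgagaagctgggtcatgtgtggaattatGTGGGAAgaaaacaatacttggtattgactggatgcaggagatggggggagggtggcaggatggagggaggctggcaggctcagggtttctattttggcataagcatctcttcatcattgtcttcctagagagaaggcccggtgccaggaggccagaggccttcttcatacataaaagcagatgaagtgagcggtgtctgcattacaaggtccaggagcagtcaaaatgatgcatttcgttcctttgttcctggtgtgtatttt
Esm1: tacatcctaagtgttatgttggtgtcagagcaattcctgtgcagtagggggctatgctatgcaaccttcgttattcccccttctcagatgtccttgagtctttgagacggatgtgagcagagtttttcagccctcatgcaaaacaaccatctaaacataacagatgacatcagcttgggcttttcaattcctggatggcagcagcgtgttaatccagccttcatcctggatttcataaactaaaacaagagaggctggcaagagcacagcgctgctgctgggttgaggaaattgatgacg
Pros1: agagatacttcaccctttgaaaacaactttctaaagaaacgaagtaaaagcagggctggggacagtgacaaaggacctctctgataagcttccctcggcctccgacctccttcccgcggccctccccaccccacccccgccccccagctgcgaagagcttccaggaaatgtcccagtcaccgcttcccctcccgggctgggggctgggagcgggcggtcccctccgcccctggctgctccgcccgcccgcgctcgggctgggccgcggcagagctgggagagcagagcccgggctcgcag
The windows differ in base composition, with 49% G and C in Lalba, 46.3% in Esm1 and 66.7% in Pros1 against a median of 52.7% over all windows. Pros1 held 21 CG pairs, Esm1 5, Lalba 3 and Chil6 0, where the median window held 7. A match to these letters is a description of the sequence and no evidence of binding.

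The arrays were of similar brightness. Between 46.6% and 50.1% of 55678 probes were well above background, and the 75th percentile of the log2 signal, to which each array was scaled, lay between 7.14 and 7.47. Probes printed at 5 or more spots had a median SD of 0.06 to 0.07 log2 within an array where they were well above background, with a 95th percentile of 0.20 to 0.26. Levels are log2 of the processed signal minus that array's 75th percentile, and differences are differences of these levels. Rbpj itself, read by a pair of probes, gave processed signals of 212, 233 and 133 by one and 627, 647 and 316 by the other in WT, Dll1-/- and Rbpj-/-, a log2 difference of -0.50 between Rbpj-/- and WT. All 3 arrays read the Dll1 probe below that flag, at signals of 4.53, 4.06 and 4.21. The position of these probes relative to the deleted parts was not known here, and the values therefore test neither genotype label.

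In Rbpj-/- cells 6 members were at least 2-fold higher than in WT and 2 were at least 2-fold lower. The background was 3.56% of 11592 genes at least 2-fold apart, 1.38% higher and 2.18% lower. Because this contrast chose the members, nothing is read from their count. In RNA from a whole population, fewer cells of a type cannot be told apart from less RNA per cell. Scaling moves the split over all genes: 160 genes were higher and 253 lower with the 75th percentile, 106 and 385 with each array's median, and 40 and 1484 with the spike-in spots. The median gene shifted from -0.07 log2 to -0.24 and -0.66 under the latter scalings. Esm1, Chil6 and Lalba were the 3 genes with the largest positive differences, Cpne7 ranked 5, Pstpip2 6 and Prg4 11. En2 had the largest negative difference and Pros1 ranked 3 from the bottom, behind Gzma. These ranks cover only genes well above background on both arrays, so a gene at background on either array has no rank. The plot of all differences against level shows where the members lie.

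**Figure D1:**
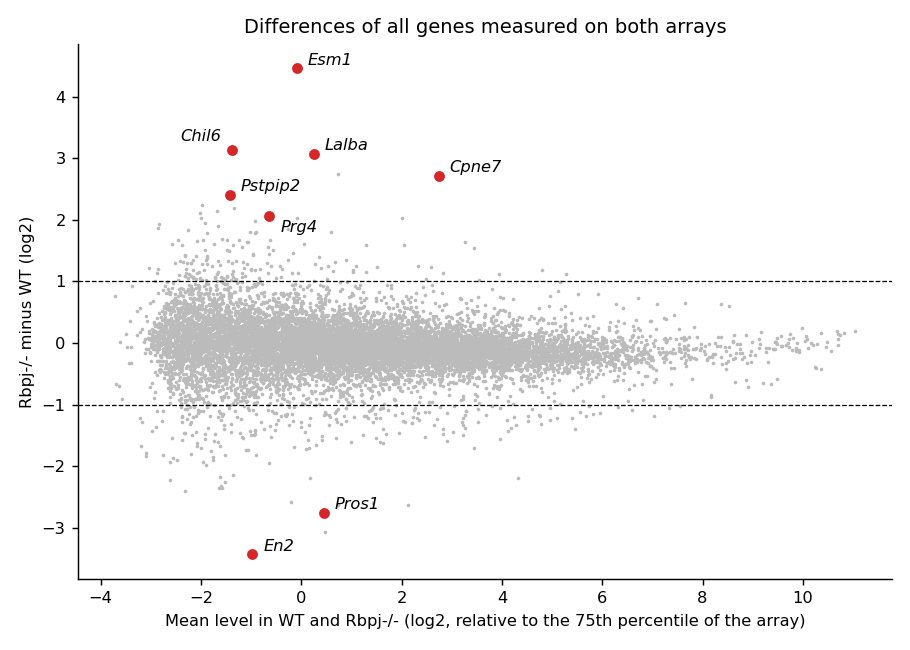
Log2 difference between Rbpj-/- and WT (vertical axis) against the mean level on the 2 arrays (horizontal axis, log2 relative to the 75th percentile) for 11592 genes, 1 grey point a gene, with the 8 members in red and dashed lines at 2-fold. Esm1 stands highest at 4.46 and En2 lowest at -3.44.

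Esm1 encodes endocan, a secreted proteoglycan made by endothelium that binds the leukocyte integrin LFA-1. Its processed signal was 35.7 in WT, 35.5 in Dll1-/- and 626 in Rbpj-/-. The WT and Dll1-/- arrays were thus alike and dim, while the Rbpj-/- array stood alone. After scaling, Rbpj-/- was 22.0-fold above WT, a log2 difference of 4.46 with a spot error of 0.27, and 19.4-fold above Dll1-/-. On the slide the Esm1 spot was 21.7 times as bright as its local background in Rbpj-/-, against 1.93 times in WT and 2.10 times in Dll1-/-. With normexp correction and quantile normalization, which adds an offset that shrinks dim differences, it was 8.59-fold above WT.

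Of 10 endothelial markers, Vwf, Tek, Emcn, Cldn5, Tie1 and Esam (6 genes) were at background on all 3 arrays. Cdh5, the cadherin of endothelium, was well above background in Rbpj-/- alone, at least 1.33-fold above WT. The summed level of the 3 measured markers was 3.91 in WT, 3.81 in Dll1-/- and 3.98 in Rbpj-/-. The part of these markers in the Esm1 difference was not tested. Among 17 partners of endocan and angiogenic genes, 10 were measured, with 0 at least 2-fold higher and 2 lower and a median of -0.15 against -0.07 over all genes. Those 2 were Fgf2, a fibroblast growth factor, at -1.18, and Icam1, a ligand of LFA-1, at -1.08. The LFA-1 chains Itgal and Itgb2 stood at -0.10 and -0.17. On chromosome 13 the measured genes next to Esm1 are Gzmk, at 0.19, and then Gzma, a killer cell protease, at -3.07. Of the 10 nearest measured genes, 2 were at least 2-fold apart, Gzma and the integrin gene Itga1 at -1.05, both lower where Esm1 was higher.

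Prg4 encodes lubricin, the lubricating proteoglycan of joints, which also binds CD44. One of its probes gave 55.7 in WT, 53.8 in Dll1-/- and 186 in Rbpj-/-, so Rbpj-/- again stood apart from 2 arrays that were close to each other. The scaled difference from WT was 2.07, or 4.20-fold, with a spot error of 0.24, and it was 2.39-fold with normexp and quantile normalization. A second Prg4 probe was below the background flag throughout, with 5.58, 3.19 and 9.22 in the same order, and its difference of 1.05 had a spot error of 1.45. Of 20 proteoglycan genes and Prg4 partners, 7 were measured, and 0 were 2-fold apart, with a median of -0.05. The largest were Tlr2, a pattern receptor, at -0.69 and the syndecan gene Sdc3 at -0.43. Among fibroblast and synovial markers Pdgfra, Pdgfrb, Dcn, Lum and Has1 were not well above background on any array. The list's summed level (6.01, 6.06 and 6.27) was carried by Thy1, which mouse T cells also express. The collagen gene Col3a1 was well above background in WT alone, at least 2.07-fold above Rbpj-/- and so opposite to Prg4, as was Clic5 (at least 1.11-fold), while Col1a1 was so in Rbpj-/- alone, at least 1.14-fold above WT. Their part in the Prg4 difference was not tested.

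Chil6 belongs to the chitinase-like proteins, secreted relatives of chitinases. Its signal was 23.0 in WT, 41.1 in Dll1-/- and 161 in Rbpj-/-, so that the 3 arrays were ordered, with WT close to the lowest signal well above background on that array (19.2). The difference from WT was 3.13, or 8.78-fold, with a spot error of 0.33, and was 2.17-fold with normexp and quantile normalization. Of the other genes in the family, 8 of 9 were on the array, and 6 of them (Chil1, Chil3, Chil4, Chia1, Chit1 and Ctbs) were at background on all 3 arrays. The 2 measured, Chid1 and Ovgp1, stood at -0.15 and 0.15. Macrophage markers Adgre1, Cd14, Fcgr1, Mertk, Cd163 and Mrc1 were at background on all 3 arrays, and the summed level of the 2 measured, Csf1r and Itgam, was 2.56, 2.44 and 2.72. Neutrophil and mast cell markers had summed levels of 1.501, 1.099 and 1.874 over 5 of 10 genes, so the sum was highest in Rbpj-/- too. Of those 5, only 3 were above 0 in Rbpj-/- against WT, and 0 were at least 2-fold apart, with a median of 0.20. Those 3 were S100a9 at 0.86, S100a8 at 0.70 and Camp at 0.20, and Ngp, Cpa3 and Mcpt4 were at background. In Dll1-/- against WT, 0 of the 5 were at least 2-fold higher and 2 lower, beside 0.372% and 0.778% of all genes. Their median there was -0.40. The part of this list in the Chil6 difference was not tested.

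Lalba encodes alpha-lactalbumin, a milk protein related to lysozyme that turns the galactosyltransferase B4galt1 to lactose synthesis. The signal was 72.9 in WT, 91.5 in Dll1-/- and 488 in Rbpj-/-. Rbpj-/- was 8.42-fold above WT (log2 3.07, spot error 0.22) and 5.87-fold above Dll1-/-, and 5.25-fold above WT with normexp and quantile normalization. The caseins and whey proteins were not measured beside it: Csn1s1, Csn1s2a, Csn1s2b, Csn2, Csn3 and Glycam1 were at background on all 3 arrays, and Wap was so in WT and Rbpj-/-. In all, 4 of 17 genes of the milk and lysozyme list were measured, 0 of them 2-fold apart, with a median of -0.23. B4galt1 stood at -0.09, and the largest were Xdh at -0.44 and Btn1a1 at -0.35, which encode proteins of the milk fat globule. In the epithelial list Krt8, Cdh1 and Elf5 were at background throughout, and Epcam, the only marker measured in WT and Rbpj-/-, had levels of -2.499, -2.727 and -1.764. Krt5, a basal keratin, was well above background in WT and Dll1-/- and at background in Rbpj-/-, at least 7.06-fold below WT, opposite to Lalba, and so were the keratins Krt18 (at least 1.29-fold) and Krt14 (at least 1.07-fold). Their part in the Lalba difference was not tested.

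Pros1 encodes protein S, a vitamin K-dependent anticoagulant that also activates Tyro3 and Mertk, of the TAM receptor family (Tyro3, Axl and Mertk). Activated T cells are known to make protein S. With En2, Pros1 makes the lower pair. Its signal was 629.9 in WT, 502 in Dll1-/- and 73.9 in Rbpj-/-. The first pair was bright and similar and Rbpj-/- low, at 6.79-fold below WT (log2 -2.76, spot error 0.22) and 6.18-fold below Dll1-/-. The spot was 22.6 times its local background in WT and 3.75 times in Rbpj-/-. With normexp and quantile normalization it was 4.05-fold below WT. Of 16 genes for vitamin K-dependent proteins, TAM receptors and their enzymes, 7 were measured, with 0 higher and 1 lower, F9, a clotting factor gene, at -1.61. That list had a median of -0.04. Of the receptors, Tyro3 stood at -0.58 and Axl at 0.35, while Mertk was at background. Gas6, the other TAM ligand, was well above background in WT and at background in Rbpj-/-, at least 1.21-fold below WT.

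Pstpip2 encodes an F-BAR adaptor that restrains inflammatory signalling in myeloid cells. Its brighter probe read 28.9 in WT, 41.8 in Dll1-/- and 122 in Rbpj-/-. The values were ordered as for Chil6, and the difference from WT was 2.40, or 5.29-fold, with a spot error of 0.34. It was 2.09-fold with normexp and quantile normalization. The second probe, at background on all 3 arrays, read 4.20, 11.3 and 3.38, a difference of 0.01 with a spot error of 2.05, too dim to be read beside the first. Of 18 relatives and partners 13 were measured and 0 were 2-fold apart, with a median of -0.06. The largest was Casp1, an inflammatory caspase, at 0.85, followed by the phosphatase gene Ptpn22 at 0.41. Pstpip1, the closest relative, stood at -0.29.

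Cpne7 encodes a copine, a protein that binds membrane lipids in the presence of calcium. Its probe read 462 in WT, 484 in Dll1-/- and 2415 in Rbpj-/-. Rbpj-/- alone was high, 6.56-fold above WT (log2 2.71, spot error 0.20) and 5.49-fold above Dll1-/-, on a spot 84.7 times its local background. Its value depended less on the correction of dim signals: the smallest value was 4.36-fold, under spike-in scaling, against 6.56-fold. Of the 8 other copines on the array, 4 were measured and 0 were 2-fold apart, with a median of -0.17, Cpne1 at -0.28 and Cpne2 at -0.20.

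En2 encodes an Engrailed homeobox factor, known from patterning of the midbrain and hindbrain. It is the member with the most spots, since its probe is printed 10 times over the array, 3 times in its upper rows and 7 times in its lower rows, where upper and lower are the array divided across the middle. In WT the 10 spots ran from 277 to 311 with a median of 298, and in Dll1-/- from 261 to 298 with a median of 285. In Rbpj-/- they ran from 18.4 to 26.3 with a median of 21.9 over 9 spots, the other having been marked an outlier and left out. The Rbpj-/- spots lay below every WT and Dll1-/- spot, in each part of the array. Expressed as a level, WT was 0.74 ± 0.06 (SD, 10 spots), Dll1-/- 0.85 ± 0.07 (SD, 10 spots) and Rbpj-/- -2.70 ± 0.17 (SD, 9 spots), where the SD is that of spots on 1 array. The difference from WT was -3.44, or 10.8-fold lower, and spot by spot it ran from -3.69 to -3.09. In Rbpj-/- 8 of the 9 spots were well above background, so the low level is near the limit of what the array measures.

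**Figure D2:**
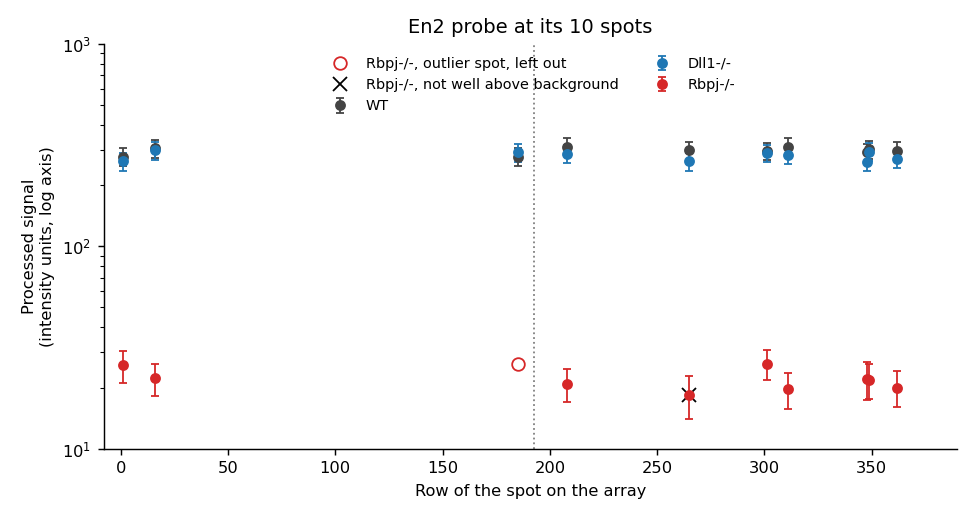
Processed signal of the En2 probe (vertical log axis, intensity units) at each of its 10 spots against the row of the spot on the array, with the scanner software's error bars and a dotted line across the middle of the array. The WT and Dll1-/- spots overlap between 261 and 311 and the Rbpj-/- spots lie between 18.4 and 26.3 over the whole length of the array.

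Among 399 probes printed at 5 or more spots, 218 were measured on the WT and Rbpj-/- arrays, 4 of them at least 2-fold higher and 9 lower, and En2 had the lowest difference of them, followed by Il4 at -2.64. Normexp and quantile normalization gave 3.55-fold for En2. Its homologue En1 was at background on all 3 arrays. Of 17 partners and relatives of En2, 11 were measured and 0 were 2-fold apart, with a median of 0.07. Pbx3, a homeobox partner, stood at 0.67 and Lmx1b at 0.65. En2 lies on chromosome 5, as Rbpj does, with 404 listed genes between them. Of the 112 measured among those, 3 were at least 2-fold higher and 1 lower, with a median of -0.07, and the extremes were Sod3 at -1.47 and Cd38 at 1.13. The 10 measured genes nearest En2 ran from -0.44 to 0.92.

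The plot of signals by array gathers these values. In the same comparison, the 25% of genes with the lowest mean level were at least 2-fold apart in 7.38% of cases and the 25% with the highest in 1.79%. Chil6, Pstpip2 and En2 fall in that lowest class, Esm1, Lalba, Prg4 and Pros1 in the next one up and Cpne7 in the one above.

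**Figure D3:**
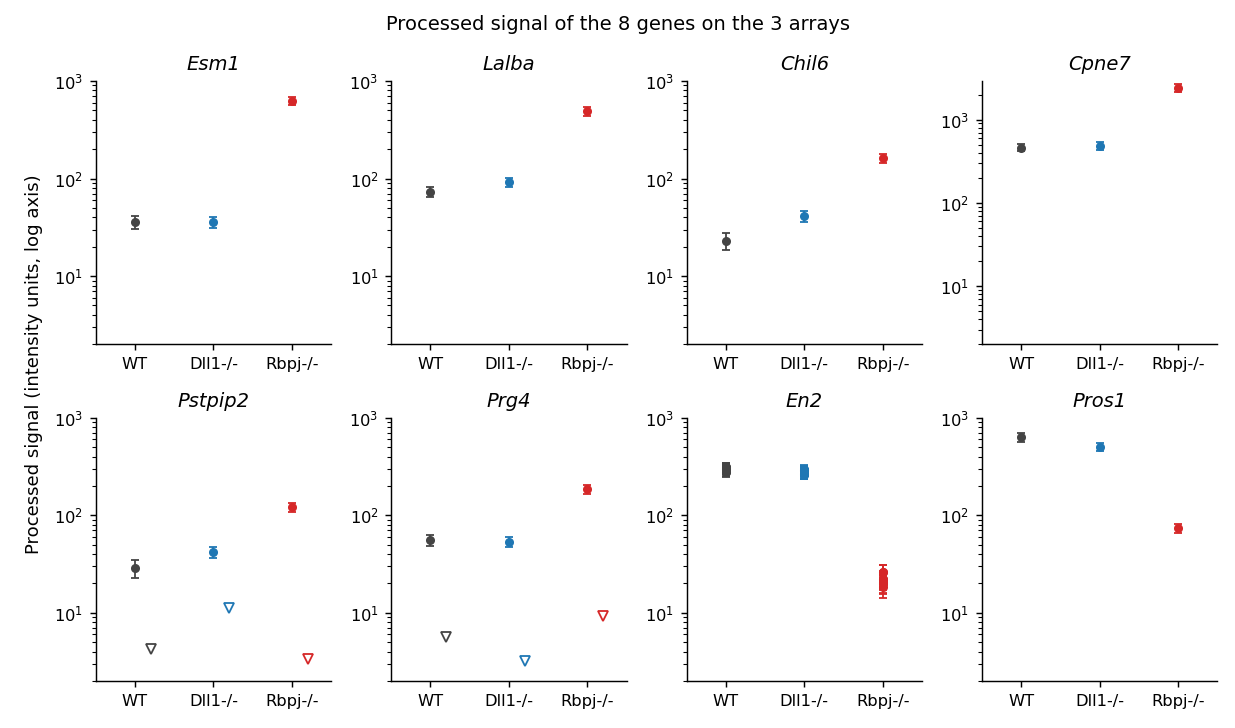
Processed signal (vertical log axis, intensity units, before scaling) of each member on the 3 arrays, with the scanner software's error bars. Open triangles are the second probes of Pstpip2 and Prg4, which were not well above background on any array; the 6 higher members peak in Rbpj-/- and En2 and Pros1 are lowest there.

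The Dll1-/- array is the 1 array the choice of members did not use, although its comparisons share an array with the first. Against WT, 1 of 8 members was at least 2-fold apart, Chil6 at 1.03 (2.04-fold), beside 1.15% of 11818 genes (0.372% higher and 0.778% lower). It stood at 0.98 with median scaling, 0.86 with spike-in scaling and 0.28 with normexp and quantile normalization, so the call was not made under any of these. Pstpip2 followed at 0.72 with a spot error of 0.36, then Lalba at 0.52, Cpne7 at 0.26, Esm1 at 0.18, Prg4 at 0.14, En2 at 0.11 and Pros1 at -0.13. The differences of Esm1, Prg4 and Pros1 are smaller than their spot errors of 0.29, 0.26 and 0.20, while that of Cpne7 exceeds its 0.20. En2 was at 0.11 ± 0.08 (SD, 10 spots). Spike-in scaling turned En2 to -0.06 and Prg4 to -0.03, and normexp with quantile normalization turned Prg4 to -0.06. Over all genes 44 were higher and 92 lower, or 29 and 122 with spike-in scaling and 6 and 5 with normexp and quantile normalization.

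Between the knockouts, Rbpj-/- minus Dll1-/-, 8 of 8 members were at least 2-fold apart, beside 4.18% of 11800 genes (1.56% higher and 2.62% lower). The differences were 4.28 for Esm1, 2.55 for Lalba, 2.46 for Cpne7, 2.11 for Chil6, 1.93 for Prg4, 1.68 for Pstpip2, -2.63 for Pros1 and -3.54 for En2. This comparison shares the Rbpj-/- array with the one that chose the members. With normexp and quantile normalization 6 of 8 remained 2-fold apart, with Chil6 at 0.84 and Pstpip2 at 0.79. Over all genes 184 were higher and 309 lower, 139 and 397 with median scaling and 66 and 752 with spike-in scaling.

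The members' place on the slide was examined because probes far apart between arrays were unevenly spread. In the Dll1-/- against WT comparison 1.07% of 7454 named probes in the upper rows were at least 2-fold lower, against 0.0661% of 7563 in the lower rows. Between Rbpj-/- and WT the shares in upper and lower rows were 2.30% and 1.55% lower and 1.52% and 0.971% higher. Chil6 lies in row 36 and Cpne7 in row 146, both upper rows, while the measured spots of Prg4, Lalba, Esm1, Pstpip2 and Pros1 lie in the lower rows 202, 239, 294, 348 and 354. Around each of the 16 member spots used, the 82 to 206 other spots within 10 rows and 10 columns had a median Rbpj-/- minus WT difference between -0.12 and -0.0030. Subtracting those medians left 8 of 8 members at least 2-fold apart. Of 2711 neighbours counted over the 16 windows, which overlap in part, 3.87% were at least 2-fold apart and 3 were as far apart as the member in the middle. One of the 3 was an En2 spot in the window of Pros1, 1 lay near Chil6 at 3.37 and 1 near the En2 spot of row 1 at -3.11. Because the members were chosen for the size of this difference, few neighbours could match them. The count of 3 is therefore a description and no check on the members.

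**Figure D4:**
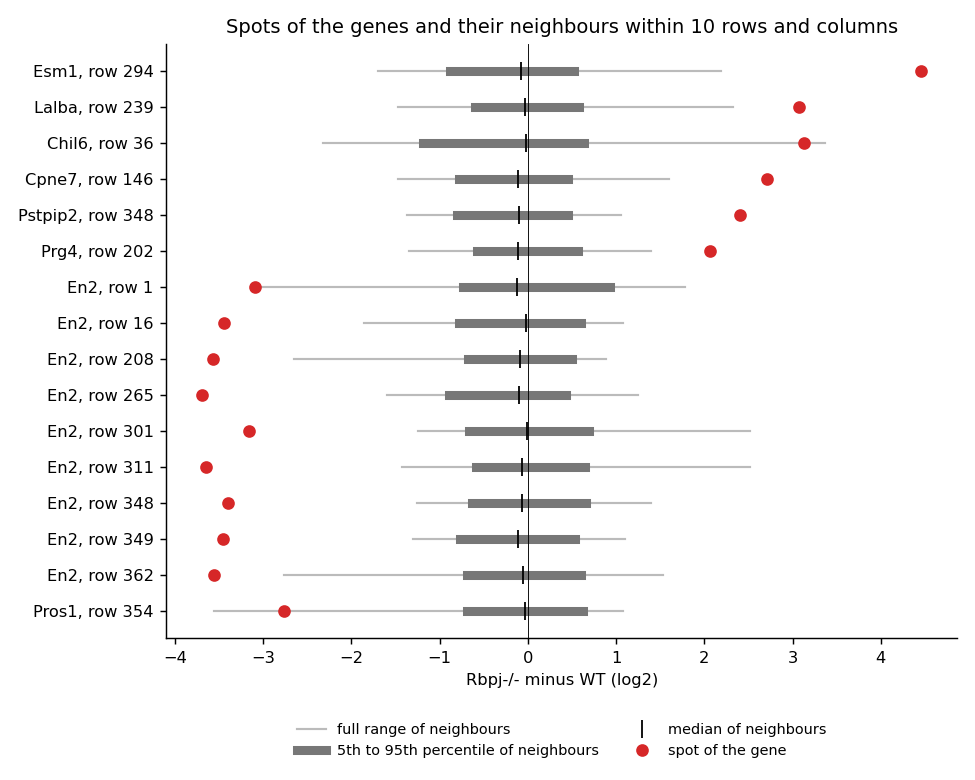
Log2 difference between Rbpj-/- and WT at each member spot (red) and at the other measured spots within 10 rows and 10 columns of it (median, 5th to 95th percentile and full range). The neighbours centre near 0, with medians from -0.12 to -0.0030. The member spots, of genes chosen for the size of this difference, lie at 2.07 or above, or at -2.76 or below.

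Other genes with the most similar pair of differences from WT were found by Euclidean distance over the pair (Rbpj-/- minus WT and Dll1-/- minus WT). The search covered genes measured on 3 arrays, 11553 before clone and predicted gene names were left out. Nearest to Pros1 were Dtx1, a ubiquitin ligase gene and Notch target, at a distance of 0.21, then Il4 at 0.40 and Pdlim4 at 0.58. En2 was nearest to Gzma at 0.49, then Pros1 at 0.71 and Il4 at 0.81. For Prg4 they were Lsr at 0.10, Ces2b at 0.14 and Gdf3 at 0.22, and for Pstpip2 Klk1b27 at 0.36, Prr5l at 0.43 and Anxa1 at 0.52. Cpne7 had Lalba at 0.45, Klk1b27 at 0.49 and Ces2b at 0.56. Lalba had Cpne7 at 0.45, Chil6 at 0.51 and Pstpip2 at 0.70, and Chil6 had Lalba at 0.51, Pstpip2 at 0.79 and Cpne7 at 0.88. Esm1 had no near neighbour among the genes searched: the closest was Lalba at 1.43, then Chil6 at 1.57 and Cpne7 at 1.75. Over 3 arrays such likeness is a description of 2 differences. The members were chosen by 1 of these, Rbpj-/- minus WT, so the distance of Esm1 from other genes and the nearness of members to each other follow in part from that choice.

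Of 22 genes of the Notch pathway and partners of Rbpj, 15 were measured, 0 were at least 2-fold higher and 2 lower in Rbpj-/-, with a median of -0.25. These were Dtx1 at -2.59 and the survival gene Bcl2 at -1.29. The labelled cell type was checked with 9 CD4 T cell genes, which had summed levels of 9.80, 9.76 and 9.90 in WT, Dll1-/- and Rbpj-/-. NK cell markers, 5 of 10 measured and including Gzma, summed to 4.410, 4.399 and 3.010, and B cell markers, 6 of 10 measured, to 4.65, 4.58 and 4.17. In Rbpj-/- against WT, 0 of the 5 NK cell markers were above 0 and 3 were at least 2-fold lower, with a median of -1.22. Of the 6 B cell markers 1 was above 0 and 0 were 2-fold apart, with a median of -0.51. Ncr1, Klrk1, Klrc1 and Klre1 were at background on all 3 arrays, and Blk among the B cell markers. Not every marker of these lists was lower in Rbpj-/-. Klrb1c, an NK cell receptor gene, and Cd79a, a chain of the B cell receptor, are outside the sums because they were at background in WT, and in Rbpj-/- they were at least 1.67-fold and at least 2.13-fold above WT. Dendritic cell markers, 3 of 10 measured, summed to 9.41, 9.48 and 9.51, with Itgax, Flt3, Zbtb46, Xcr1 and Clec9a at background. The median difference of those 3 was -0.20, with 1 of them above 0, and Siglech, at a level of 9.07 in WT, gave most of the sum. Batf3 was at background in Rbpj-/- and at least 3.40-fold below WT. The part of these markers in the Pros1 and En2 differences was not tested.

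The 8 members were compared between Rbpj-/- and WT under 6 alternatives. Under median scaling, spike-in scaling, normexp with quantile normalization and subtraction of neighbour medians, each kept its direction and at least a 2-fold difference. The smallest folds were those of Pstpip2 (2.09), Chil6 (2.17) and Prg4 (2.39). The other alternatives could hardly move a value. The authors' log2 table holds nearly the same signals up to a constant per array (Esm1 4.457 against 4.462). Requiring the background flag on both arrays left the same probe for each member. Taken alone, which is not among the 6, the dim Pstpip2 probe gave 0.01.

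**Figure D5:**
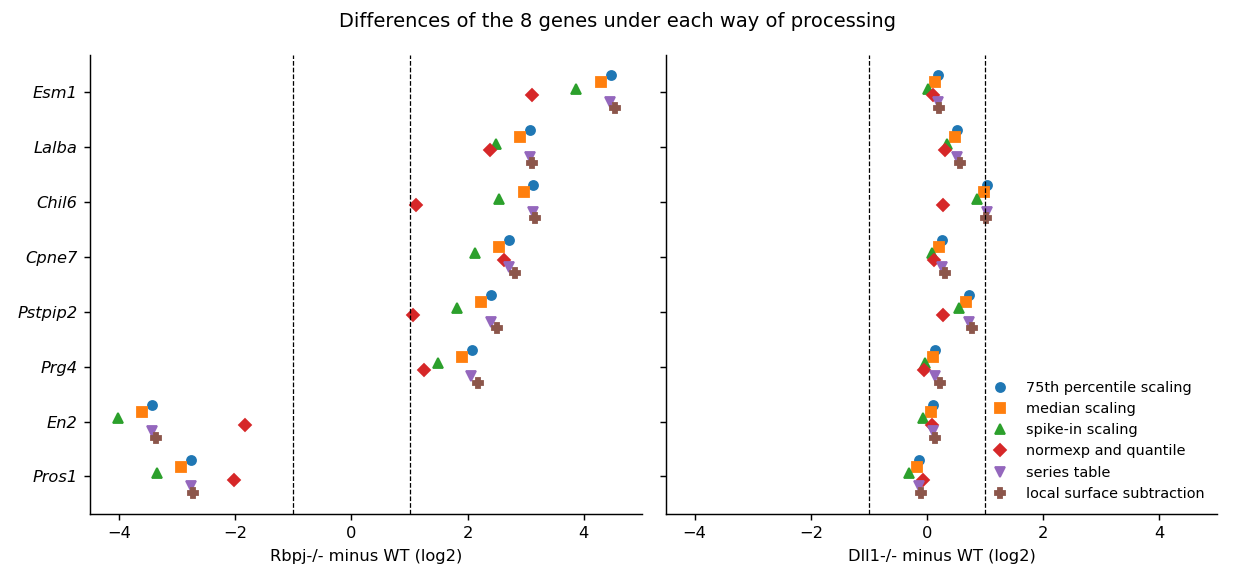
Log2 differences of the 8 members from WT in Rbpj-/- (left) and Dll1-/- (right) under 75th percentile scaling and 5 alternatives, with dashed lines at 2-fold. On the left every marker lies outside the 2-fold lines, and on the right only Chil6 reaches 2-fold, under 3 of the 6 settings drawn.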

How the data were processed

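The 3 samples are 1 array each of WT, Dll1-/- and Rbpj-/-, grouped by the genotype in the labels. The authors deposited scanner files whose processed signal is an intensity, background-subtracted and detrended by Agilent Feature Extraction (10.7 per the submitters' processing notes, 10.7.1.1 per the file headers). A table of log2 values deposited by the authors for the series served as an alternative. Its columns had medians of -3.44, -3.40 and -3.28, and 99.66% to 99.70% of its entries lay within 0.01 of log2 signal once 1 constant was added for each array, which settles scale and direction and shows that genes were not centred.

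Outlier spots were left out (139 to 163 per array), log2 signals were scaled to the 75th percentile over 55678 probes, spots of a probe were averaged, and a probe counted as well above background where over 0.5 of its spots were. Accessions named 49.4% of probes through RefSeq (GRCm38.p6); mm9 is the build of the design per the file headers, and only promoter windows carry coordinates. Levels of a gene average the probes that passed this on 1 array or more, and a gene entered a comparison where it passed on both arrays. Neighbour spots were those well above background on both arrays. From each list other than those of cell type markers, the text names up to 4 genes past 2-fold or, with none, the 2 with the largest size. For each member it names the 3 nearest patterns. Other names, those of cell type markers among them, were chosen after their values were seen. Members and lists were chosen with earlier results of these data known. Summed levels are log2 of summed linear levels over list members measured in WT and Rbpj-/-.

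Scripts were tested on simulated data. A gene above background on 1 of 2 arrays is given as a bound against the other array. The bound uses the lowest signal well above background there, or the gene's own level there where that is higher. Analyses used Python 3.11.15, pandas 2.3.3 and limma 3.58.1 in R 4.3.3. The number of arrays, 1 a group, limits the precision.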

Additional observations from a re-analysis of the deposited data

How the results depend on the processing

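Between Rbpj-/- and WT the 8 members stayed at least 2-fold apart under each scaling, correction and surface subtraction, and the 6 with spots in the lower rows did so there. The members were chosen by this contrast, so these counts describe the processing and are no check on the differences. The single Chil6 call in Dll1-/- against WT was 0 with median scaling, with spike-in scaling, with normexp and quantile normalization and in the lower rows alone, where Chil6 has no spot. The dim Pstpip2 probe alone gave -1.60 between the knockouts, where the gene stood at 1.68; its signals were at background.

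Over all genes the counts at least 2-fold apart were 413 (Rbpj-/- against WT), 136 (Dll1-/- against WT) and 493 (between knockouts). With normexp and quantile normalization, whose offset of 50 shrinks dim differences, they were 111, 11 and 194. Without a filter on dim probes they were 1753, 1147 and 1936, with only genes at or above the 75th percentile, which tests fewer genes, 155, 12 and 219, and in the lower rows alone 182, 17 and 241. Spike-in scaling gave 1524 for Rbpj-/- against WT and 818 between knockouts. Keeping probes that passed the background flag on both arrays compared gave 90 for Dll1-/- against WT. The last setting, and lower rows for the members, were chosen after seeing the data. No paired analysis was possible because each group has 1 array. Signal over background limits the dim side of several members: in WT the spots of Pstpip2, Esm1 and Chil6 were 1.83, 1.93 and 2.19 times their local background, and in Rbpj-/- 1 of 9 En2 spots was below the flag, at 1.55 times.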
